A study of Mus musculus with 18 samples.

Results

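The Hoxa cluster is a row of homeobox genes on mouse chromosome 6, and 10 of its genes were followed here: Hoxa2, Hoxa3, Hoxa4, Hoxa5, Hoxa6, Hoxa7, Hoxa9, Hoxa10, Hoxa11 and Hoxa13. They were taken by symbol from the 55487 genes of the count files and set in their order on the chromosome. All 10 were among the 20118 genes that passed the filter on low counts. The RNA came from forelimb buds of mouse embryos, with 3 libraries in each of 6 groups. Mutants were Esco2fl/fl;Prrx1-CreTg/0, with both Esco2 alleles flanked by loxP sites and 1 copy of a Cre transgene driven by a Prrx1 limb enhancer. Controls were Esco2fl/fl, so that they carried the same floxed alleles and lacked Cre. Buds of either genotype were taken at 3 ages, written E9.5, E10.5 and E11.5 for the embryonic day. Loss of Esco2 and presence of Cre cannot be told apart in this design. Prrx1-Cre acts in limb mesenchyme, so that ectoderm, vessels and blood in the same bud keep Esco2. The labels describe individual limb buds without saying whether they came from separate embryos or litters, and the p-values therefore measure only the spread between these libraries, which may be partly technical.

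Hox genes encode transcription factors that give cells their position along the body and limb axes. In the limb bud the Hoxa genes are switched on in sequence from the anterior (3′) end of the cluster to the posterior (5′) end, so that Hoxa13 comes last and marks the future hand. Hoxa9 and Hoxa10, with their Hoxd counterparts, pattern the upper arm, Hoxa11 the forearm and Hoxa13 the hand plate, whereas the anterior genes are known mainly for the hindbrain and trunk.

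Total counts ran from 35034237 to 56230058 per library. Levels are given in CPM, counts scaled to library size and between libraries. Esco2 itself ranged from 25.0 to 28.1 CPM in E9.5 controls and from 15.3 to 19.8 in E9.5 mutants, at 28.1 to 33.6 and 18.9 to 22.3 at E10.5, and at 20.6 to 30.9 and 22.5 to 23.8 at E11.5. Its log2 change was -0.60 ± 0.14 (SE, adjusted p = 0.162), -0.53 ± 0.14 (adjusted p = 0.0200) and -0.26 ± 0.14 (adjusted p = 0.238) at the 3 stages, from counts over all exons, and the deleted exons are not named in the sources used here. Tbx5, a forelimb gene, stood at 50.8 CPM or more in every library, and the hindlimb genes Tbx4 and Pitx1 both below it in every library, Pitx1 at no more than 11.3 CPM. Control E9.5 replicate 1 had 22294 genes detected, fewer than any other library, and mutant E10.5 replicate 3 had the highest sum of erythroid markers, 19600 CPM. Calls of single members that were lost without 1 of these libraries are given with and without it. Marker sums and marker calls are given with both libraries included. The same holds for calls of the other Hox clusters, the Hox partners and regulators, and the flanking genes.

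Sequences upstream of 4 members are shown because each of these members passed the test in at least 1 comparison below and its start site in the RefSeq table met the gene start of the count annotation. The RefSeq table held a promoter for 9 of the 10 members, all but Hoxa4. Each line gives the 250 bases before the start site, 5′ to 3′ on the minus strand, on which all 10 members lie, in GRCm38.p6 (mm10) coordinates. Capitals mark matches to 7 short motifs that were searched on both strands and are named after the sequences.

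Hoxa5, chr6:52204588-52204837: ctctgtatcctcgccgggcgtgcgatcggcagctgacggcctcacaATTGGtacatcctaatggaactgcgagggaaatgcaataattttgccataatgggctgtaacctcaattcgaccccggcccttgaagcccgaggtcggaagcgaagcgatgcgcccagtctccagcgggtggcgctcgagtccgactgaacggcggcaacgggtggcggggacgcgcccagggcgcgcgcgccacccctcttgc
Hoxa10, chr6:52240855-52241104: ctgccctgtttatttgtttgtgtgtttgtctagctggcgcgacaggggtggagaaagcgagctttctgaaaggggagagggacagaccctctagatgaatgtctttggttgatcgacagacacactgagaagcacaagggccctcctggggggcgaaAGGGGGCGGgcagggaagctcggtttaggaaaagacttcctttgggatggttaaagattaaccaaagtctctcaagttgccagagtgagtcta
Hoxa11, chr6:52245811-52246060: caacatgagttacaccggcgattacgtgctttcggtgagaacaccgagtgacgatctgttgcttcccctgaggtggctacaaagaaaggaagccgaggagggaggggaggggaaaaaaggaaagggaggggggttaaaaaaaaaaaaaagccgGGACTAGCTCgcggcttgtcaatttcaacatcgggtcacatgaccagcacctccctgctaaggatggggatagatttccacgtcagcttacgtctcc
Hoxa13, chr6:52260881-52261130: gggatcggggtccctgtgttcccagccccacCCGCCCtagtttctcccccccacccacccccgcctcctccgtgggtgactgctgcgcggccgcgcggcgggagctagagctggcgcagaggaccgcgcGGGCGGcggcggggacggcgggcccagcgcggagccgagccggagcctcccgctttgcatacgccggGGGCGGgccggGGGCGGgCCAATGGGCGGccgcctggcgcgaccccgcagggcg

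The Hoxa13 window was 80.0% G and C, against a median of 52.4% over all 32536 promoter windows of that length. It held 5 matches to the GC box (GGGCGG), which 33.0% of all windows hold. It also held 1 CCAAT box (the letters of its name), found in 33.8% of windows.

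The Hoxa10 window (51.6% G and C) held 1 match to a CTCF core (AGGGGGCG), found in 5.43% of windows, which overlapped a GC box. In the Hoxa11 window (52.0% G and C) the only match was 1 p53 half-site, which reads as a match on both strands and is found in 7.12% of windows. Hoxa5 (63.6% G and C) had 1 CCAAT box.

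RefSeq also lists a second start of Hoxa10 inside the annotated gene, whose window is not shown and held 1 TATA box and 1 CCAAT box. The TATA box (TATAAA, 12.3% of windows) was in none of the 4 windows shown. The posterior Hox and Cdx site (TTTATNG), which 9.74% of all windows hold, was in none of them either. The Pbx-Hox site (TGATNNAT), which 7.66% of all windows hold, was also without a match. A match is a run of letters, and binding was not measured.

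Which members the control forelimb bud used at each stage was read from levels per length, as FPKM (CPM divided by the exon length in kilobases). At E9.5 the order began with Hoxa5 at 35.1 ± 13.6 FPKM (SD, n = 3), followed by Hoxa7 at 28.1 ± 6.81, Hoxa9 at 25.8 ± 8.35, Hoxa11 at 23.9 ± 8.54 and Hoxa10 at 16.7 ± 4.86. Libraries of neighbours overlapped throughout this upper group, so that its inner order is not settled by 3 libraries. Hoxa4 (9.79 ± 1.93), Hoxa6 (7.60 ± 4.91), Hoxa2 (4.68 ± 0.529) and Hoxa3 (4.34 ± 0.557) came next, and Hoxa13 was last at 0.0621 ± 0.0509. By E10.5 the order was led by Hoxa10 at 50.2 ± 5.65 and Hoxa11 at 43.7 ± 3.46, which overlapped each other and not the next gene, Hoxa9 at 23.4 ± 4.55. At E11.5 Hoxa10 stood alone at the top with 61.1 ± 9.40 FPKM, Hoxa11 (36.4 ± 3.29) overlapped Hoxa13 (28.5 ± 5.02), and Hoxa2, Hoxa3 and Hoxa4 closed the order at 1.80 to 2.40.

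This order differed in part from that of the authors' deposited values, and the cause was not tested. In the authors' deposited table, on a linear scale, Hoxa9 led at E9.5 with a mean of 46.9 FPKM, before Hoxa7 at 41.8 and Hoxa5 at 36.9. At E10.5 its deposited values of 34.0 to 49.9 FPKM overlapped those of Hoxa11 (42.2 to 48.5), and Hoxa10 lay above both. At E11.5 deposited Hoxa9 values of 30.4 to 37.4 FPKM overlapped both Hoxa11 and Hoxa13, and Hoxa3 had a deposited mean of 5.6 against 2.40 here. Hoxa10 at the top at E10.5 and E11.5, and Hoxa13 at the bottom at E9.5, held in both. Values of Hoxa2 and Hoxa3 are low by construction. A predicted gene on the same strand (Gm28308) shares 15.0% and 8.01% of their exon bases, and reads there were not counted. For Hoxa9 the share, with Mir196b, was 1.52%. At E11.5 Hoxa2 had a deposited control mean of 2.36 FPKM against 2.35 here. Hoxa7 and Hoxa10, with no exon bases shared on the same strand, had 12.6 against 8.89 and 77.9 against 61.1. The part of shared bases in the differences from the deposited values was not tested.

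**Figure D1:**
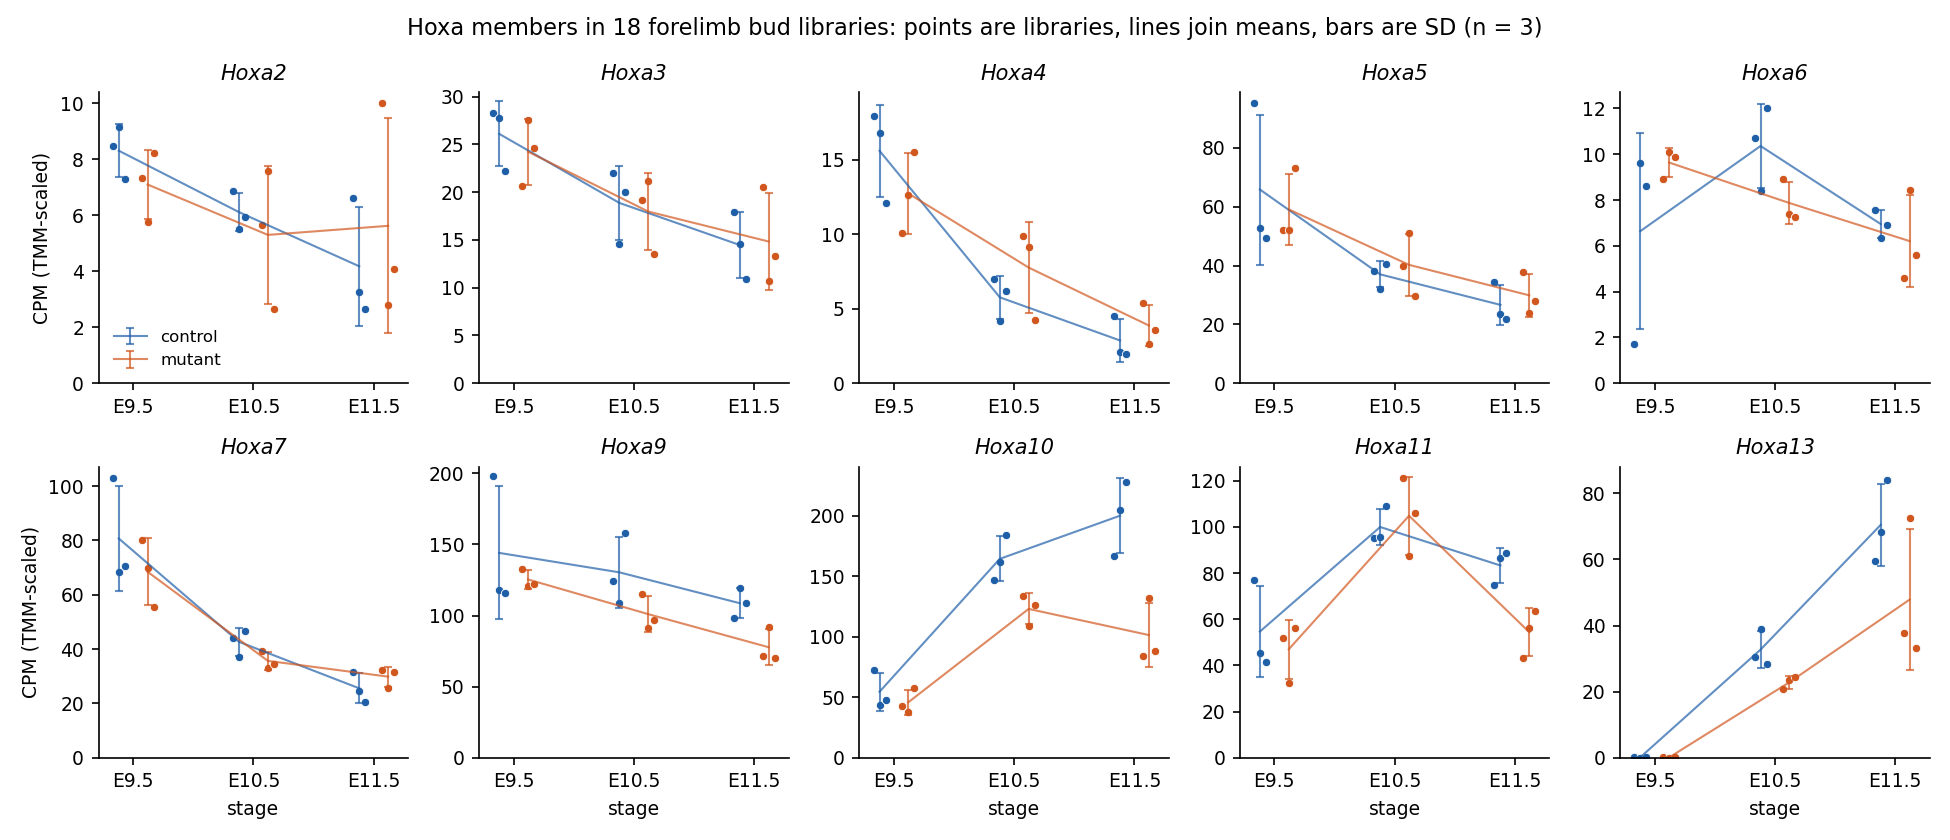
Normalised level (CPM, y axis, starting at 0 and different for each gene) of the 10 Hoxa members in every library by stage (x axis), with controls in blue, mutants in orange, points for libraries, lines joining group means and bars for the SD of 3 libraries. Hoxa13 is near 0 at E9.5 and reaches 59.4 to 83.9 CPM in the E11.5 controls, Hoxa10 separates the genotypes at E11.5, and Hoxa4 and Hoxa7 decline.

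Between E9.5 and E10.5 the control buds gained posterior and lost anterior Hoxa RNA. Hoxa10, Hoxa11 and Hoxa13 rose and Hoxa4, Hoxa5 and Hoxa7 fell, 6 of 10 members, where 27.5% of all genes tested (15.0% higher and 12.5% lower) passed an adjusted p of 0.05 (edgeR quasi-likelihood test, Benjamini-Hochberg adjustment). The median log2 change was 1.23 over Hoxa9 to Hoxa13 and -0.65 over Hoxa2 to Hoxa7, against 0.02 over all genes. Libraries of the 2 stages did not overlap for 8 members, 3 of them higher and 5 lower at E10.5, against 39.1% of all genes.

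Hoxa13, the hand plate gene, was counted 7, 1 and 13 times in the 3 E9.5 control libraries, which is 0.175, 0.0183 and 0.267 CPM, and stood at 30.6, 39.1 and 28.5 CPM at E10.5. The stages were far apart in every library, and the log2 change was 7.76 ± 0.44 (adjusted p = 6.29e-09). Hoxa10, an upper arm gene, went from 72.7, 43.4 and 47.6 to 147, 162 and 184 CPM, a log2 change of 1.59 ± 0.21 (adjusted p = 4.73e-05). Hoxa11, the forearm gene, went from 77.1, 45.5 and 41.4 to 95.0, 95.8 and 109 CPM, a log2 change of 0.87 ± 0.22 (adjusted p = 0.00865). In both genes control E9.5 replicate 1 was the highest library of its group and still lay below every E10.5 library.

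Among the anterior members, Hoxa7 went from 103, 68.5 and 70.6 to 44.2, 37.0 and 46.8 CPM, with a log2 change of -0.92 ± 0.18 (adjusted p = 0.00138). Hoxa4 went from 17.9, 16.8 and 12.1 to 6.97, 4.17 and 6.16 CPM, with a log2 change of -1.43 ± 0.36 (adjusted p = 0.00712). Hoxa5, which is known for shoulder, neck and lung development, went from 95.2, 52.8 and 49.5 to 38.3, 32.1 and 40.6 CPM, with a log2 change of -0.83 ± 0.26 (adjusted p = 0.0252). No library of these 3 genes overlapped between the stages. The Hoxa5 call was lost when control E9.5 replicate 1 was left out (-0.47, adjusted p = 0.218), also without control E10.5 replicate 1 (adjusted p = 0.0596) or replicate 2 (adjusted p = 0.0979), and with no filter on low counts (adjusted p = 0.0739). Those of Hoxa4, Hoxa7, Hoxa10, Hoxa11 and Hoxa13 were kept in all 17 alternatives run for each.

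The other 4 members did not pass. Hoxa2 and Hoxa3, genes of hindbrain and neck patterning, lay lower in every E10.5 library than in any at E9.5, with log2 changes of -0.44 ± 0.42 (adjusted p = 0.459) and -0.47 ± 0.24 (adjusted p = 0.156). Hoxa9 had a log2 change of -0.14 ± 0.18 (adjusted p = 0.605), between its risen neighbour Hoxa10 and its fallen neighbour Hoxa7. Hoxa6 was at 1.72 CPM in control E9.5 replicate 1 and at 9.60 and 8.60 in the other 2 libraries of that group, while the same library was the highest of its group for Hoxa3, Hoxa4, Hoxa5, Hoxa7, Hoxa9, Hoxa10 and Hoxa11. Its log2 change of 0.64 ± 0.39 (adjusted p = 0.236) ran from 0.17 to 1.03 over the alternatives.

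From E10.5 to E11.5 the control buds differed in 2 members, where 9.49% of genes passed (6.60% higher and 2.89% lower). Hoxa13 rose further, to 59.4, 68.2 and 83.9 CPM, each above every E10.5 library (log2 change 1.11 ± 0.28, adjusted p = 0.0194). Hoxa7 fell further, to 31.5, 24.5 and 20.7 CPM, each below every E10.5 library (log2 change -0.74 ± 0.18, adjusted p = 0.0167). Both calls were lost, with the direction kept, when control E10.5 replicate 1 or 3 or control E11.5 replicate 2 or 3 was left out, at adjusted p of 0.0525 to 0.105 for Hoxa13 and 0.0675 to 0.108 for Hoxa7. Over all alternatives Hoxa13 passed in 10 of 17, failing also with no filter (adjusted p = 0.0697) and on the deposited log2 FPKM values (limma, adjusted p = 0.313), and Hoxa7 passed in 12 of 17. Libraries did not overlap for 1 member higher (Hoxa13) and 3 lower (Hoxa6, Hoxa7 and Hoxa11), against 37.9% of genes. Hoxa10 reached 167, 205 and 228 CPM (log2 change 0.28 ± 0.21, adjusted p = 0.465), and Hoxa11 stood at 74.7, 86.3 and 88.8 CPM with a log2 change of -0.26 ± 0.22 (adjusted p = 0.535). Hoxa4, at 4.54, 2.13 and 1.94 CPM, missed the threshold (log2 change -1.0 ± 0.36, adjusted p = 0.0976) but passed in 5 of 17 alternatives, among them the fit without control E11.5 replicate 1 (adjusted p = 0.0195). The other 5 members, Hoxa2, Hoxa3, Hoxa5, Hoxa6 and Hoxa9, had log2 changes from -0.58 to -0.26, none past the threshold.

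In mutants the first step moved 4 members. Hoxa10 (log2 change 1.42 ± 0.21, adjusted p = 0.000202), Hoxa11 (1.16 ± 0.23, adjusted p = 0.00210) and Hoxa13 (7.63 ± 0.46, adjusted p = 3.06e-08) rose from E9.5 to E10.5 and Hoxa7 fell (-0.94 ± 0.18, adjusted p = 0.00203), where 14.0% of genes passed (9.63% higher and 4.40% lower). All 4 calls were kept in the 17 alternatives run. Hoxa13 was counted 6, 3 and 5 times in the E9.5 mutant libraries and stood at 20.7, 23.5 and 24.4 CPM at E10.5. Hoxa4 (-0.71 ± 0.35, adjusted p = 0.208) and Hoxa5 (-0.55 ± 0.26, adjusted p = 0.180), which fell in controls, lay lower in every E10.5 mutant library and did not pass (Hoxa4 in 1 of 17 alternatives). That their step differed from the step in controls was not shown, since the interaction gave log2 differences of 0.72 ± 0.50 for Hoxa4 (adjusted p = 0.393) and 0.28 ± 0.36 for Hoxa5 (adjusted p = 0.674).

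In the second step Hoxa11 fell in mutants, from 121, 87.4 and 106 to 43.2, 56.4 and 63.6 CPM, with no overlap between the stages (log2 change -0.95 ± 0.22, adjusted p = 0.0288, where 2.89% of genes passed, 2.0% higher and 0.890% lower). That call was lost without mutant E10.5 replicate 1 (adjusted p = 0.118) or 3 (0.0971), without mutant E11.5 replicate 1 (0.147) or 2 (0.102), and with no filter (0.0650). Hoxa13 was higher in each E11.5 mutant library than in any at E10.5, at a log2 change of 1.07 ± 0.28 and an adjusted p of 0.0506, which passed in 7 of 17 alternatives, among them the fit without mutant E11.5 replicate 3 (1.28, adjusted p = 0.021). Without mutant E11.5 replicate 2 the change was 0.64, the smallest over the alternatives, and did not pass. Hoxa10 had a log2 change of -0.28 ± 0.21 (adjusted p = 0.664), opposite in sign to the 0.28 of controls. The comparison of the mutant effect at E11.5 with that at E10.5 called none of the 10 members, where 0.0746% of genes passed. Hoxa11 alone was under 0.05 before adjustment, as were 8.47% of genes, with a difference of -0.68 ± 0.31 (adjusted p = 0.573 in edgeR). Hoxa10 gave -0.56 ± 0.29 (adjusted p = 0.631). The mutant effect at E10.5 against that at E9.5 called none either, where 2.22% of genes passed, and no member had an unadjusted p under 0.05, against 22.0% of genes.

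**Figure D2:**
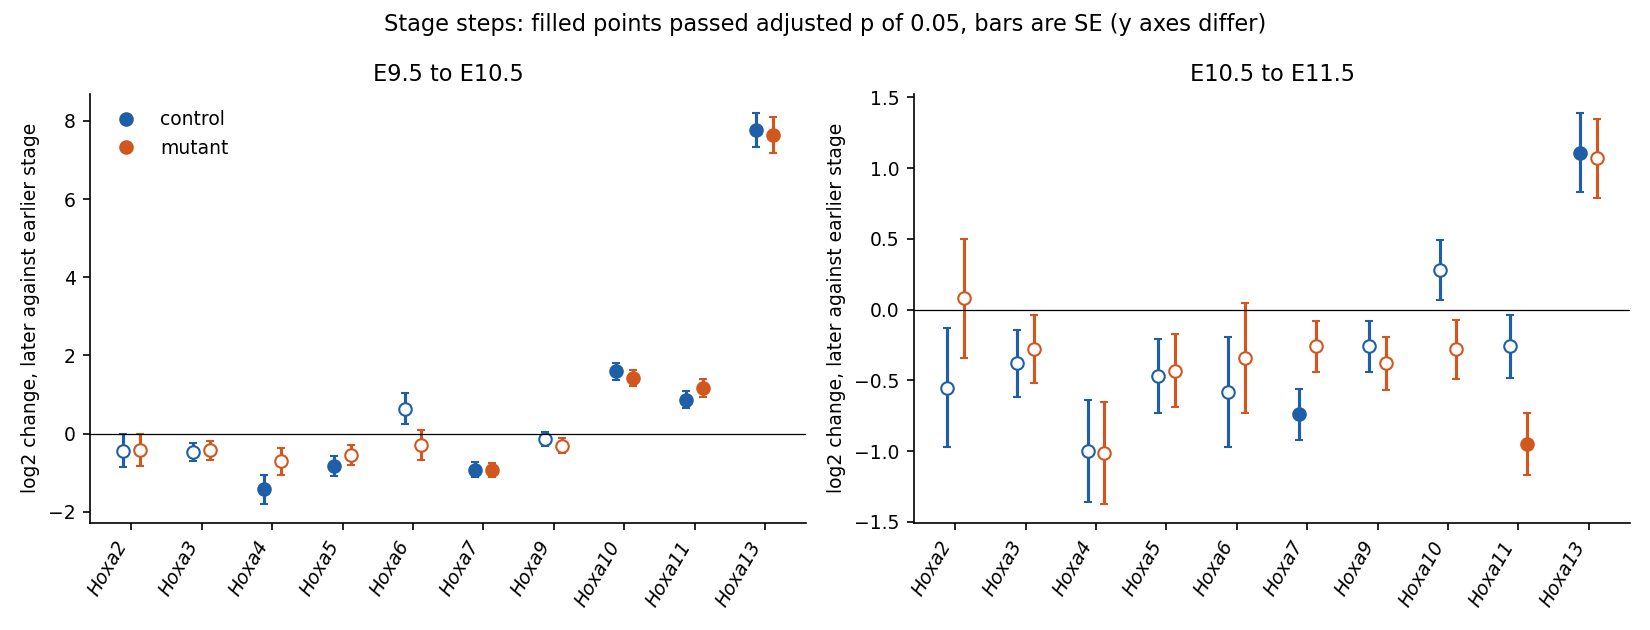
Log2 change of each member (x axis, in cluster order) from one stage to the next in controls (blue) and mutants (orange), with bars for the SE of the edgeR fit and filled points for an adjusted p below 0.05, on y axes that differ between the panels. From E9.5 to E10.5 the 3 posterior members rose in both genotypes, by 7.76 and 7.63 for Hoxa13, and from E10.5 to E11.5 Hoxa11 fell by 0.95 in mutants, whereas its control value of -0.26 did not pass.

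Mutants and controls were then compared within each stage. These comparisons share libraries with the stage steps above, so that their values are not independent of them. At E9.5 none of the 10 members differed by edgeR, where 0.184% of genes passed, and none was called by DESeq2 or limma-voom. No member had an unadjusted p under 0.05, against 9.92% of genes. Mutant and control libraries overlapped for all 10, whereas 8.87% of genes did not overlap. The median log2 change over all genes was -0.01. Over 27 tested genes of the other Hox clusters it was -0.18, with 21 negative and 4 positive. That of the members was -0.22, and 9 of 10 were negative. The log2 changes ran from -0.39 ± 0.74 for Hoxa13 to -0.11 ± 0.24 for Hoxa3, beside 0.53 ± 0.39 for Hoxa6, the gene that was low in control E9.5 replicate 1. Without that library the Hoxa9, Hoxa10, Hoxa11 and Hoxa5 values turned to between 0.02 and 0.21, none of them called.

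At E10.5 none of the 10 members passed the test by edgeR, where 13.9% of genes did, and none had an unadjusted p under 0.05, against 28.0% of genes. DESeq2 and limma-voom called none. Hoxa10 stood at 147, 162 and 184 CPM in controls and at 134, 109 and 126 in mutants, each mutant below each control (log2 change -0.42 ± 0.21, adjusted p = 0.201). Hoxa13 stood at 30.6, 39.1 and 28.5 CPM in controls and at 20.7, 23.5 and 24.4 in mutants, again without overlap (log2 change -0.52 ± 0.28, adjusted p = 0.242). These 2 were the only members whose libraries did not overlap, against 46.1% of all genes in either direction and 23.1% in the lower one. Fitted without the other stages, Hoxa10 (adjusted p = 0.0106) and Hoxa13 (adjusted p = 0.00662) passed, with log2 changes of -0.42 and -0.52. Hoxa11, which lies between them, was at 95.0, 95.8 and 109 CPM in controls and 121, 87.4 and 106 in mutants (log2 change 0.07 ± 0.22, adjusted p = 0.874), with mutant libraries on both sides of the controls. Hoxa9 had a log2 change of -0.37 ± 0.19 (adjusted p = 0.206). Hoxa2 to Hoxa7 had log2 changes from -0.40 ± 0.39 (Hoxa6) to 0.43 ± 0.35 (Hoxa4), with overlapping libraries for all 6.

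At E11.5 Hoxa10 was lower in mutants and was the only member called, where 17.5% of genes passed and 9.52% were lower. Controls held 167, 205 and 228 CPM and mutants 84.0, 132 and 88.2, so that the mutant mean was 51.0% of the control mean and the highest mutant lay below the lowest control. The log2 change was -0.98 ± 0.21 (adjusted p = 0.00371). It passed in all 17 alternatives, at log2 changes from -1.21 to -0.86 and adjusted p from 0.000163 to 0.0287, among them the fit without both libraries that stood apart.

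Hoxa11 and Hoxa9, the neighbours of Hoxa10 on either side, gave smaller differences. Hoxa11 stood at 74.7, 86.3 and 88.8 CPM in controls and at 43.2, 56.4 and 63.6 in mutants, with no overlap (log2 change -0.61 ± 0.22, adjusted p = 0.0679). It passed in 6 of 17 alternatives, including DESeq2 (adjusted p = 0.0453) and the fit of E11.5 without the other stages (adjusted p = 0.0105). Hoxa9 stood at 98.0, 119 and 109 CPM in controls and at 71.2, 92.2 and 69.8 in mutants, also with no overlap (log2 change -0.48 ± 0.19, adjusted p = 0.0823), and passed in 3 of 17. The members without overlap were therefore Hoxa9, Hoxa10 and Hoxa11, all lower in mutants, against 20.7% of genes lower without overlap and 40.5% in either direction. The same 3 members had an unadjusted p under 0.05, against 30.5% of genes.

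Hoxa13 at E11.5 was split among the mutants. Controls held 59.4, 68.2 and 83.9 CPM, and mutants 37.9, 72.4 and 33.3. Mutant replicate 2 lay within the controls and the other 2 mutants below all of them, and the log2 change was -0.56 ± 0.28 (adjusted p = 0.186). Without mutant E11.5 replicate 2 it was -0.99, with an adjusted p of 0.0213, and the count of called members was 2. Without mutant E11.5 replicate 3 it was -0.35 (adjusted p = 0.511), the value nearest 0 over the alternatives. Replicate 2 was also the highest mutant for Hoxa6, Hoxa9 and Hoxa10 and the lowest for Hoxa2, Hoxa3, Hoxa4, Hoxa5 and Hoxa7. For Hoxa11 it lay between the other mutants.

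No member from Hoxa2 to Hoxa7 differed at E11.5. Their log2 changes were 0.42 ± 0.43 for Hoxa2, 0.04 ± 0.24 for Hoxa3, 0.42 ± 0.37 for Hoxa4, 0.16 ± 0.26 for Hoxa5, -0.16 ± 0.39 for Hoxa6 and 0.22 ± 0.18 for Hoxa7, with adjusted p from 0.437 to 0.939 and overlapping libraries in all 6. Their median was 0.19, that of Hoxa9 to Hoxa13 was -0.59 and that of all genes 0.01. Hoxa2 stood at 4.18 ± 2.12 CPM in controls and 5.63 ± 3.85 in mutants (SD, n = 3), with replicate 1 the highest library in both genotypes. Replicate 1 was also the highest E11.5 library of its genotype for Hoxa3, Hoxa4, Hoxa5 and Hoxa7, and the sample codes of control replicate 1 and mutant replicate 3 share their first number, 79, whose meaning the labels do not give. In that pair Hoxa10 stood at 167 CPM in the control and 88.2 in the mutant.

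**Figure D3:**
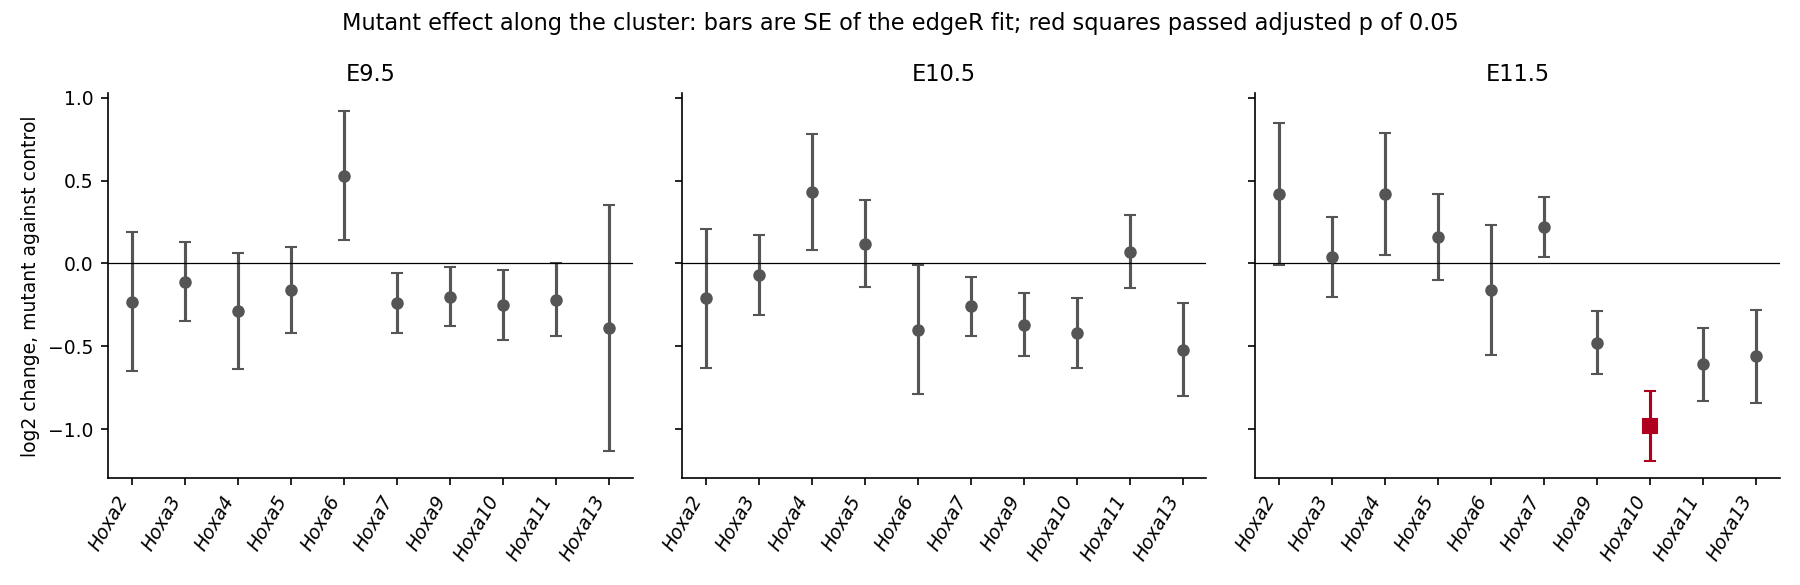
Log2 change of mutants against controls (y axis) for each member in cluster order (x axis) at the 3 stages, with bars for the SE of the edgeR fit and a red square for an adjusted p below 0.05. Hoxa10 at E11.5 (-0.98) is the only square, and Hoxa9, Hoxa11 and Hoxa13 lie between -0.61 and -0.48 beside it.

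Marker RNA of several cell types differed between genotypes at the same stages. Of all genes, 0.184% passed at E9.5, 13.9% at E10.5 and 17.5% at E11.5 (8.02% higher and 9.52% lower). In bulk RNA, fewer cells of a type and less RNA per cell cannot be told apart. The 7 mesenchyme markers summed to 1820 to 1880 CPM in the E11.5 controls and 851 to 1150 in the E11.5 mutants, with 4 of 7 lower and none higher. At E10.5 the sums were 1650 to 1710 and 884 to 1130, with 3 of 7 lower. The 10 surface ectoderm markers summed to 337 to 577 CPM in controls and 676 to 878 in mutants at E11.5, with 8 of 10 higher, and to 323 to 484 and 654 to 988 at E10.5, with 9 of 10 higher. Macrophage markers were higher for 5 of 7 genes at E11.5 (40.8 to 49.0 CPM in controls, 91.5 to 188 in mutants) and muscle precursor markers for 3 of 7 (170 to 229 and 297 to 415). Erythroid markers were higher for 5 of 9 genes at E10.5 (2920 to 6050 and 6260 to 19600 CPM) and for none at E11.5. Endothelium markers were higher for 4 of 8 genes at E10.5 and 2 of 8 at E11.5. Of 6 tested neural and trunk markers 1 was higher at E10.5 and 1 lower at E11.5, and Pax6 was at 0 in all E10.5 controls, the only such marker in these lists. At E9.5 no marker of any list passed. The mesenchyme sums were 1710 to 2130 CPM in E9.5 controls and 1560 to 1700 in E9.5 mutants. Those of surface ectoderm were 254 to 367 and 389 to 452, and sums of the other lists overlapped. Log2 changes at E9.5 were negative for all 7 mesenchyme markers. They were positive for all 10 surface ectoderm and all 7 macrophage markers. The part of these shifts in the Hoxa10 difference was not tested.

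What share each member took of the Hoxa RNA does not use the level of other genes. Of the summed FPKM of the 10 members, Hoxa10, Hoxa11 and Hoxa13 together took 27.9%, 24.1% and 25.3% at E9.5 in controls, 54.7%, 61.5% and 56.0% at E10.5 and 62.3%, 69.8% and 73.6% at E11.5. In mutants the same share was 25.7%, 20.4% and 27.8%, then 56.6%, 51.2% and 61.3%, then 49.2%, 64.1% and 57.0%. The control share was thus larger at each later stage with no overlap, as it was from the authors' deposited table (21.3% to 24.5%, 50.5% to 57.4% and 58.6% to 69.7%), and the E10.5 and E11.5 mutants overlapped. At E11.5 the genotypes overlapped through mutant replicate 2 and control replicate 1.

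Hoxa13 alone took 15.5 ± 1.89% (SD, n = 3) in the E11.5 controls and 14.6 ± 4.67% in the mutants, a difference within the spread. Hoxa2 to Hoxa7 took 20.7 ± 5.97% and 32.5 ± 7.80%. The summed FPKM itself was 173, 183 and 193 in the E11.5 controls and 122, 147 and 120 in the mutants, with every mutant below every control, while at E10.5 the genotypes overlapped (174 to 206 and 155 to 181).

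**Figure D4:**
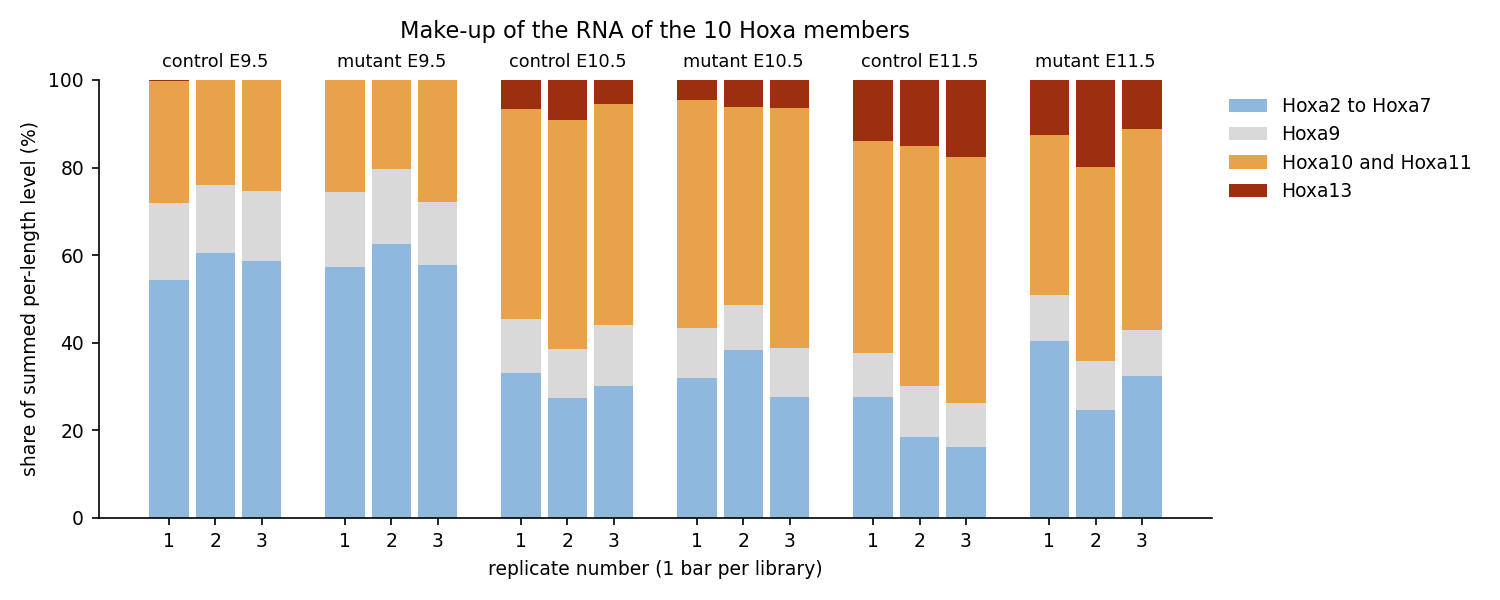
Share of the summed per-length level of the 10 members (y axis, percent) in every library, 1 bar per library and grouped by genotype and stage, split into Hoxa2 to Hoxa7, Hoxa9, Hoxa10 with Hoxa11, and Hoxa13. Hoxa13 is too small to see at E9.5, and the posterior share grows to 62.3% to 73.6% in the E11.5 controls, against 49.2% to 64.1% in the mutants.

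A further 6 transcripts of the locus were followed beside the members: Evx1, which lies beyond Hoxa13, and 5 noncoding transcripts of the plus strand. Hotairm1, a noncoding RNA at the anterior end of the cluster, was at 1.03, 0.817 and 0.423 CPM in the E11.5 controls and at 3.26, 1.5 and 2.01 in the mutants (log2 change 1.57 ± 0.36, adjusted p = 0.00583). Evx1, a homeobox gene, was at 10.7, 8.62 and 8.67 CPM in controls and 13.6, 21.6 and 18.3 in mutants (log2 change 0.93 ± 0.23, adjusted p = 0.0103). All 3 mutants lay above all 3 controls for both. So 2 of 6 were higher, with a list median of 0.79 against 0.01 over all genes, where 8.02% of genes were called higher. These 2 transcripts flank the members on both sides. The Hotairm1 call was kept in all 16 alternatives run and that of Evx1 in 16 of 17, all but the fit without mutant E11.5 replicate 2 (0.77, adjusted p = 0.0554). At E10.5 none of the 6 differed by edgeR, where 13.9% of genes did. None had an unadjusted p under 0.05, against 28.0% of genes. Evx1 passed when E10.5 was fitted without the other stages (0.44, adjusted p = 0.0363).

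At the posterior end, Hottip, a noncoding RNA that starts upstream of Hoxa13 in the opposite direction, had no count in the 3 E9.5 control libraries, where 3 counts would be 0.055 to 0.0748 CPM. It stood at 3.69, 6.74 and 5.06 CPM at E10.5 and 10.6, 13.4 and 10.9 at E11.5. In mutants it reached 9.38, 18.2 and 6.29 CPM at E11.5, on both sides of the controls (log2 change -0.04 ± 0.38, adjusted p = 0.957). Hoxa11os, the antisense transcript of Hoxa11, was counted apart from Hoxa11 by strand. In controls its levels were 13.9, 7.60 and 5.78 CPM at E9.5, 59.7, 62.0 and 69.1 at E10.5 and 118, 162 and 140 at E11.5. It rose at both steps (log2 changes 2.81 ± 0.36, adjusted p = 3.30e-05, and 1.14 ± 0.33, adjusted p = 0.0396), whereas Hoxa11 rose at the first step and did not pass at the second. The call at the second step was lost without control E10.5 replicate 1, 2 or 3 or control E11.5 replicate 2 or 3 (adjusted p from 0.0935 to 0.140).

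The mutants had Hoxa11os at 106, 202 and 77.3 CPM at E11.5 (log2 change -0.12 ± 0.33, adjusted p = 0.836), with replicate 2 highest for Hoxa11os, Hottip and Hoxa13 alike. Hoxaas3, an antisense transcript across Hoxa3 to Hoxa7, differed by 0.95 ± 0.35 (log2) at E11.5 (adjusted p = 0.0735), and Hoxaas2 by 0.64 ± 0.70 (adjusted p = 0.579). Hoxaas3 passed in 5 of 16 alternatives and Hoxaas2 in 1. Without control E11.5 replicate 1 both passed, at 1.68 (adjusted p = 0.00165) and 2.91 (adjusted p = 0.00397). For 3 of these noncoding transcripts, Hotairm1, Hoxa11os and Hottip, 21.6% to 25.3% of exon bases are shared with other annotated genes on the same strand, so that their values are low by construction.

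**Figure D5:**
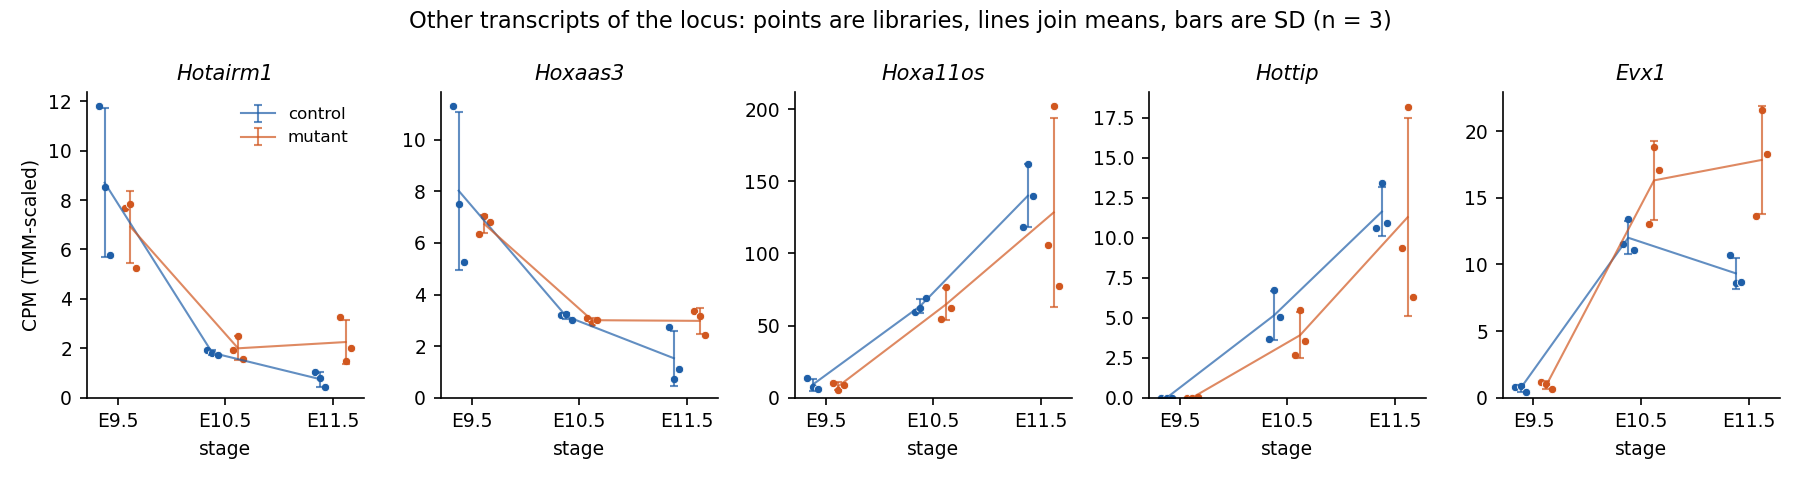
Normalised level (CPM, y axis from 0) of 5 other transcripts of the locus by stage (x axis) in controls (blue) and mutants (orange), with points for libraries, lines joining means and bars for the SD of 3 libraries. Hotairm1 and Evx1 lie higher in all 3 E11.5 mutants than in the controls, and mutant replicate 2 is the top point of Hoxa11os (202) and Hottip (18.2).

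The remaining Hox clusters gave a background for the members. From E9.5 to E10.5 in controls the median log2 change was 3.66 over Hoxd9 to Hoxd13 and -2.08 over Hoxd1 to Hoxd8. Over Hoxb it was -2.11, with 8 of 9 genes lower and 0 higher. Over Hoxc it was -0.84, with 4 of 9 genes higher and 4 lower. Of all genes, 15.0% were higher and 12.5% lower at that step. Of 27 tested genes of Hoxb, Hoxc and Hoxd, 4 were higher and none lower in mutants at E10.5, where 13.9% of all genes passed. These were Hoxc8 (1.10 ± 0.21), Hoxc9 (1.37 ± 0.28), Hoxc13 (1.68 ± 0.42) and Hoxd1 (1.18 ± 0.31). At E11.5 again 4 were higher and none lower, where 8.02% of all genes were higher and 9.52% lower. Hoxd1 led them (1.34 ± 0.33, adjusted p = 0.0100). Its level was low, at 0.377 to 0.615 CPM in controls and 0.984 to 1.32 in mutants at E10.5. At E11.5 Hoxd1 stood at 0.258 to 0.395 CPM in controls and 0.501 to 1.05 in mutants. The Hoxd9 to Hoxd13 genes, the limb counterparts of the posterior members, had no call at any stage, with log2 changes at E11.5 from -0.57 ± 0.24 for Hoxd11 to -0.34 ± 0.28 for Hoxd13 and a median of -0.44. Hoxd11 was the only one of them with an unadjusted p under 0.05 at E11.5, against 30.5% of genes. That Hoxa10 differed from these genes in its response was not tested.

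Partners and regulators of Hox genes were taken from lists. Of all genes, 13.9% passed between genotypes at E10.5 and 17.5% at E11.5 (8.02% higher and 9.52% lower). Of 8 cofactors, which bind DNA together with Hox proteins, Pbx2 (-0.26 ± 0.08, adjusted p = 0.0385) was lower at E10.5. None differed at E11.5, where 3 had an unadjusted p under 0.05, against 30.5% of genes. Of 13 chromatin regulators, 3 were lower and 1 higher at E10.5. Lower were Cbx2 (-0.54 ± 0.09, adjusted p = 0.000819), Cbx8 (-0.93 ± 0.18, adjusted p = 0.00227) and Ezh2 (-0.30 ± 0.08, adjusted p = 0.0191). Cbx7 was higher (0.72 ± 0.21, adjusted p = 0.0309). At E11.5 Cbx8 was lower (-0.73 ± 0.18, adjusted p = 0.00900) and Eed higher (0.36 ± 0.11, adjusted p = 0.0382). Of 16 limb signals and regulators, 6 were lower and 2 higher at E10.5, and 6 lower and 3 higher at E11.5. The smallest adjusted p at E11.5 belonged to Tbx5 (-1.91 ± 0.14), Shox2, an upper arm gene (-1.67 ± 0.19), Rarg, a retinoic acid receptor (-0.72 ± 0.10), and Fgf8, the ridge signal (2.12 ± 0.35). Of 9 genes flanking the cluster, Creb5 was lower at both stages (-1.88 ± 0.33 at E10.5 and -2.02 ± 0.32 at E11.5). Nfe2l3 was higher at E10.5 (1.75 ± 0.54), at a low level of 0.369 to 0.379 CPM in controls and 0.638 to 2.42 in mutants. At E11.5 Jazf1 was lower (-1.34 ± 0.39) and Skap2 higher (0.41 ± 0.11).

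The genes whose levels ran most like Hoxa13 over the 18 libraries were Hoxd12 (Pearson r of log2 CPM 0.994), Gjb6 (0.988), Bcl11b (0.986), Hoxd13 (0.984), Oxct1 (0.984) and Eva1a (0.978), out of 11784 genes compared. For Hoxa11 they were Hsd11b2 (0.875), Nim1k (0.846), Cd24a (0.845), Mlxipl (0.833), Sema3f (0.823) and Svopl (0.816). The libraries share stage, genotype and normalisation, so that these values describe a common course over the 6 groups, and for Hoxa13 mainly its step from near 0 at E9.5.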

How the data were processed

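Counts were deposited by the authors for each library. Per the file headers, they come from featureCounts 1.6.4 with paired, reverse-stranded (setting 2) counting over the exons of GENCODE vM22 genes on mm10, which by default drops read pairs with more than 1 mapping place or more than 1 same-strand gene. The submitters' processing notes also name cutadapt, STAR and limma, without settings. The authors also deposited log2 FPKM for 14692 genes, whose normalization the sources used here do not state; these served as an alternative only. Symbols were assigned by gene identifier to 99.8% of 55487 identifiers.

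In R 4.3.3, edgeR 4.0.16 fitted 1 quasi-likelihood model to the 6 groups of 3 libraries after filterByExpr and TMM scaling, with 12 residual degrees of freedom. P-values were adjusted over all 20118 genes by Benjamini-Hochberg, with a threshold of 0.05, for 9 comparisons. Depth ran from 35034237 to 56230058 counts per library, and the floor of 3 counts covers counting error only. The method was tested on simulated data. Alternatives included DESeq2 1.42.0, limma 3.58.1 (voom), other scaling and filtering, a replicate block, a length correction and left-out libraries. Libraries were grouped by title.

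The members and lists were chosen with earlier results of these data known. The text names all 10 members, at most 4 genes of each other list per comparison (those with the smallest adjusted p), and the 6 genes most like Hoxa13 and Hoxa11 by Pearson correlation of log2 CPM (prior count 2) among genes with a mean of at least 1. The 6 further transcripts of the locus and the 5 posterior Hoxd genes are named beyond that limit, after their values were seen. Some genes of these lists are not reported here. Promoter sequences are RefSeq's on GRCm38.p6.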

Additional observations from a re-analysis of the deposited data

How the results depend on the processing

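Each count of called members was recomputed under 11 settings and with each library of the groups compared left out in turn. Of 165 such counts 136 stayed within 1.5 times the reported one, and of 1650 values of single members 1601 kept their side of the threshold, 23 lost and 26 gained a call, and none of the called values turned sign, whereas 108 uncalled ones did. For mutants against controls at E11.5 the reported count of 1 became 2 with DESeq2, 2 with the length trend removed, and 3 when the stage was fitted alone or both libraries that stood apart were left out, and leaving out single libraries gave 1 to 2. At E10.5 the reported count of 0 became 2 when the stage was fitted alone, and leaving out single libraries gave 0. For control E11.5 against E10.5 the reported 2 became 1 with no filter, 1 with the deposited log2 FPKM values, 0 with the 4 E10.5 libraries of sample code 41 alone and 4 without both libraries that stood apart, and single libraries gave 0 to 3. For mutant E11.5 against E10.5 the reported 1 became 0 with no filter, 2 with DESeq2 size factors (RLE), DESeq2, limma-voom or the length trend removed, and 0 with sample code 41 alone, and single libraries gave 0 to 2. Without single libraries the count was 5 to 6 for control E10.5 against E9.5 (reported 6), 4 for mutant E10.5 against E9.5 (reported 4) and 0 for mutants against controls at E9.5 and for both differences of effect. By Spearman in place of Pearson correlation, 0 of the 6 genes most like Hoxa13 and 2 of those most like Hoxa11 were the same. The causes of these changes were not tested.

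Whether the replicate numbers pair the libraries was not settled. Deviations of same-numbered mutants and controls correlated at 0.184, 0.119 and 0.069 at E9.5, against -0.137 to 0.071 for different numbers. At E10.5 same-numbered pairs gave 0.086, 0.06 and -0.003, against -0.075 to 0.016 for different numbers. At E11.5 same-numbered pairs gave -0.148, 0.108 and -0.064, against -0.214 to 0.26 for different numbers. The highest of all correlations, 0.26, was between control E11.5 replicate 1 and mutant E11.5 replicate 3, whose sample codes share the number 79. The control and mutant that share code 65 at E9.5 gave -0.128. Control and mutant pairs that share code 41 at E10.5 gave 0.086, -0.075, -0.074 and 0.06. The part of a shared origin in the results was not tested beyond leaving out libraries. Shares of summed FPKM from the deposited values were added after seeing the data. With a replicate block the count of called members was 3 for mutants against controls at E11.5 and 2 with block and length trend removed, and 2 under both for mutant E11.5 against E10.5. Depth limits Hoxa13 at E9.5, with 1 to 13 counts per library.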
